A study of Oryza sativa Japonica Group with 32 samples.

Results

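The OsbHLH genes of rice are described here, the genes whose symbol in the deposited expression table begins with OsbHLH. The rule found 133 genes among 38978, which carried 129 distinct symbols because OsbHLH027, OsbHLH061, OsbHLH116 and OsbHLH117 each stood on a pair of gene identifiers. A further 6 identifiers of bHLH genes known under other names were to be left out, and none of these 6 carried an OsbHLH symbol. The family is therefore described by symbol and not by sequence, and bHLH genes named otherwise are not among the members.

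The tissues came from the japonica cultivar Nipponbare. Plumules, the young shoots of germinating seeds, were sampled 3 days after germination with a daily light period or in continuous dark. Seedlings were sampled at 2 weeks and at 8 days, panicles at heading, and flag leaf, embryo and endosperm at 10 days after anthesis. Each tissue had 2 biological replicates, and each replicate gave a treated and an untreated m6A-SAC-seq library of polyA RNA, which makes 32 libraries in all. The untreated libraries gave gene expression in TPM, a share of all transcripts corrected for gene length. The treated libraries gave m6A (N6-methyladenosine, a methyl mark on adenosine of mRNA) as a fraction at single bases, deposited as 1 pooled value per tissue.

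Basic helix-loop-helix (bHLH) proteins bind DNA as dimers. The basic region contacts the E-box and related motifs, and the helix-loop-helix region holds the partners together, so the set of partners present in a cell decides which dimers can form. In plants the family is known for steps of stomatal development, jasmonate signalling, iron uptake, anther development, cell elongation and responses to cold and salt.

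The 16 untreated libraries held 12856679 to 15516038 reads, worked out from the TPM values. Replicates of a tissue correlated at 0.991 to 0.996 (Pearson r of log2(TPM + 1) across genes, which are not independent replicates). Libraries of different tissues correlated at 0.504 to 0.995, so some were as alike as replicates. Tissue labels were checked with marker genes. The summed level of the floral genes DL and OsMADS7 was 364 to 371 TPM in panicle and 0.0948 to 0.102 TPM in flag leaf. It was also 232 to 253 TPM in endosperm, nearly all of it from OsMADS7. The summed level of 113 endosperm genes was 133565 to 137686 TPM in embryo and 257563 to 271443 TPM in endosperm. This sum does not measure endosperm RNA in embryo, since 38 of the 113 had a higher mean in embryo, led by OsEnS-115 with 34618 TPM in embryo and 22.5 TPM in endosperm. For 32 storage protein genes and their regulators the level in embryo was 8.45% of that in endosperm at the median, and it ranged from 0.325% to 74.7%. In the other direction, 22 genes of the embryo list that reached 10 TPM in embryo were in endosperm at 8.67% of their embryo level at the median, and this ranged from 0.0708% (OsLEA20) to 398% (OsLEA24). Among 3 green leaf genes (CAB1R and CAB2R of the light-harvesting complex and OsRcaII) the sum was 6.74 to 7.14 TPM in embryo and 1611 to 2135 TPM in endosperm. It was 1673 to 1893 TPM in plumule light, against 2523 to 2532 TPM in plumule dark, so these genes were not higher in the libraries labelled light.

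Of the 133 genes, 115 had a mean of at least 1 TPM in some tissue, 77 reached 10 TPM and 7 reached 100 TPM. A smaller share of OsbHLH genes than of all genes was present in every tissue. Among the 115, 35 (30.4%) were at 1 TPM or more in all 8 tissues, against 52.8% of all genes present at that level, while 9 (7.83%) were so in 1 tissue only, against 9.69%. The number at 1 TPM or more was 100 in plumule light, 99 in plumule dark, 86 in the 2-week seedling, 93 in the 8-day seedling, 82 in panicle, 64 in flag leaf, 78 in embryo and 61 in endosperm. Flag leaf and endosperm held the fewest. The share of members was below that of all genes in flag leaf (48.1%, against 53.8%), endosperm (45.9%, against 52.1%) and panicle (61.65%, against 62.63%). It was above that of all genes in plumule light (75.2%, against 57.3%), plumule dark (74.4%, against 57.4%) and the 8-day seedling (69.9%, against 59.3%). The same held for the 2-week seedling (64.66%, against 57.85%) and embryo (58.65%, against 52.89%). Endosperm was also the lowest tissue for all genes. The tissue with the highest mean was flag leaf for 23 genes, panicle for 20, embryo for 17, plumule dark for 14, plumule light for 12, the 2-week seedling for 11, endosperm for 10 and the 8-day seedling for 8. Panicle was the highest tissue for 17.4% of these OsbHLH genes, against 26.1% of all genes, and embryo for 14.8%, against 9.55%. For flag leaf the share was 20%, against 21.6%.

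**Figure D1:**
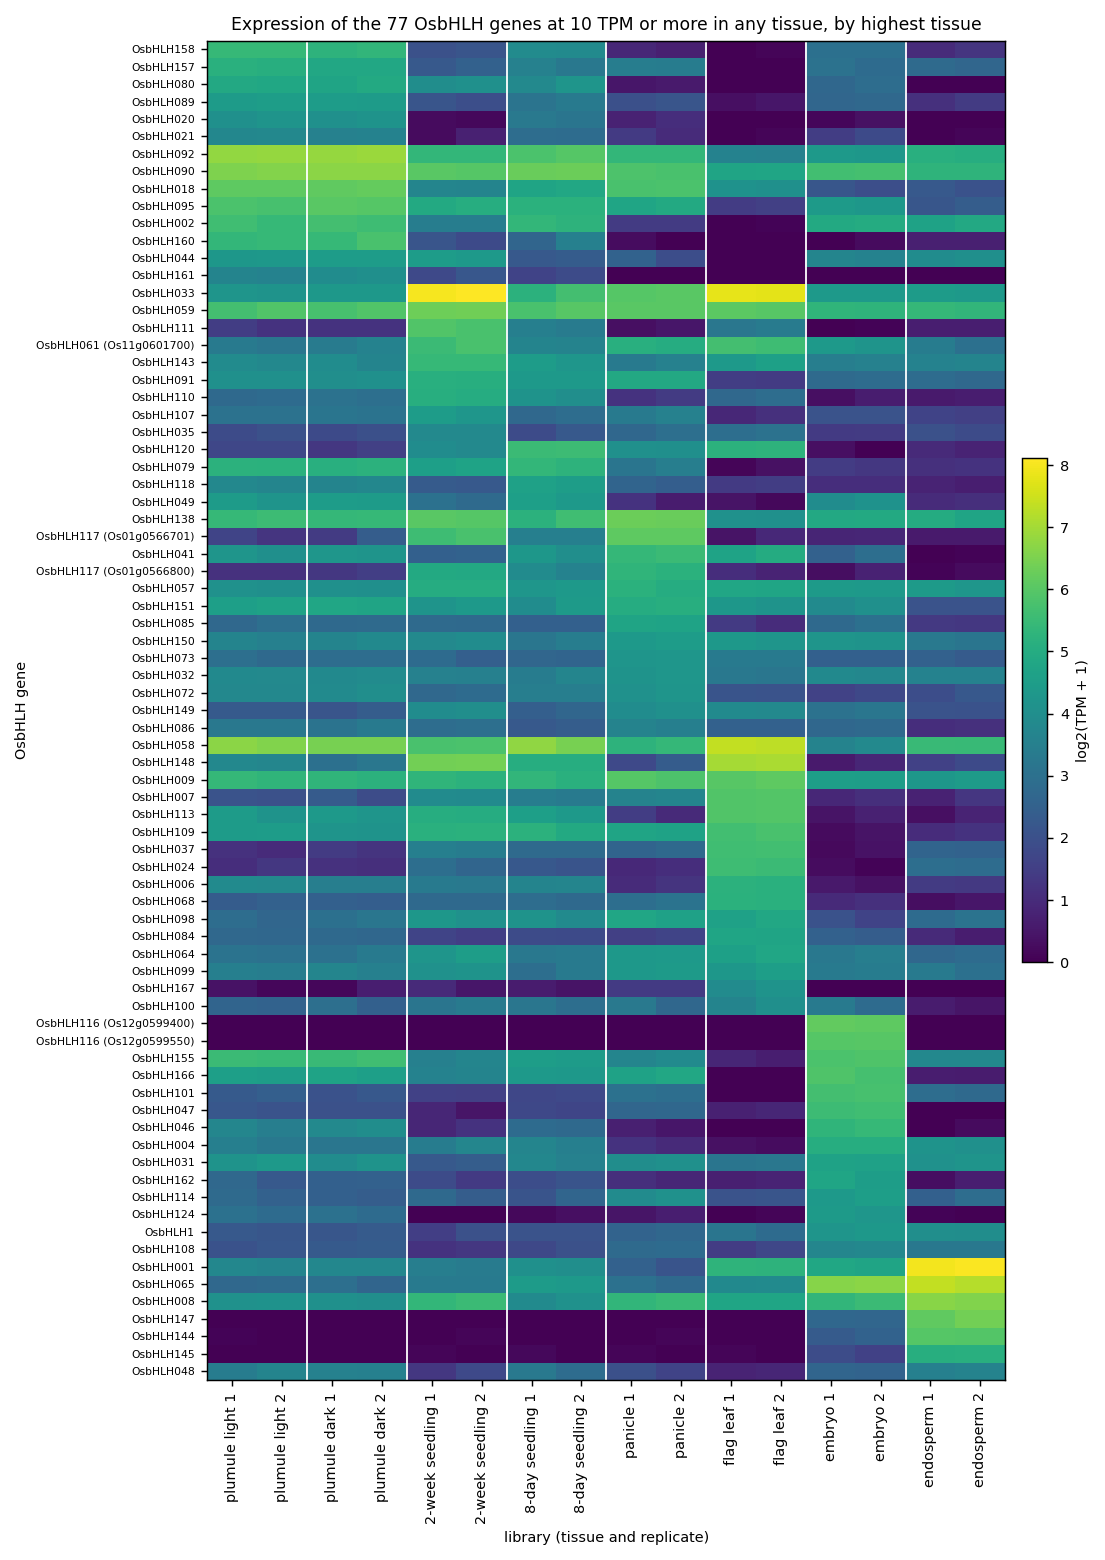
Heatmap of log2(TPM + 1) for the 77 OsbHLH genes with a mean of at least 10 TPM in any tissue (rows, ordered by their highest tissue) in the 16 untreated libraries (columns, 2 per tissue). Replicates look alike, and OsbHLH116, OsbHLH144, OsbHLH145 and OsbHLH147 stand near 0 outside the seed tissues.

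The most abundant OsbHLH transcripts changed from tissue to tissue. OsbHLH092 led in plumule light with 110 and 113 TPM, followed by OsbHLH058 with 103 and 94.0 TPM. In plumule dark OsbHLH092 had 113 and 117 TPM and OsbHLH090 had 103 and 103 TPM. OsbHLH033 led in the 2-week seedling (254 and 276 TPM), where it made up 16.1% of all OsbHLH TPM, and in flag leaf (225 and 220 TPM). OsbHLH058 led in the 8-day seedling with 107 and 85.6 TPM. In panicle no member stood far above the rest, and OsbHLH138, tied in earlier work to thermosensitive male sterility, came first with 77.5 and 75.7 TPM. OsbHLH065 led in embryo with 98.0 and 102 TPM. OsbHLH001 led in endosperm with 251 and 265 TPM, or 21.1% of all OsbHLH TPM there, ahead of OsbHLH065 with 164 and 146 TPM.

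For the tests, 114 of the 133 genes had at least 1 TPM in at least 2 libraries. The other 19 did not exceed 1.36 TPM in any library, and 2 of them (OsbHLH012 and OsbHLH043) were listed at 0 in all 16 libraries. OsbHLH011, OsbHLH014 and OsbHLH019 were also among these low genes. The program limma was fitted to log2(TPM + 1) over all 28562 genes that passed the same filter, and a gene was called at a Benjamini-Hochberg adjusted p under 0.05. Fold changes below are log2 differences on this scale with their standard error (SE), which understates the change of low genes. All 114 members differed among the 8 tissues in the F test, where 98.6% of all genes tested were called, so this share is near that of genes in general. In bulk tissue, fewer cells of a type and less RNA per cell cannot be told apart.

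Pairs of tissues were then compared, and each tissue entered 1 pair. In all, 110 of the 114 members were called in at least 1 of the 4 pairs, where 96.3% of all genes were. Between plumule light and plumule dark no member was called higher or lower by limma, where 0% and 0.0105% of all genes were. At an unadjusted p under 0.05 there were 9 members (7.89%), against 6.52% of all genes. Between the 2-week and the 8-day seedling 30 members were higher (26.3%, against 35.4% of all genes) and 45 lower (39.5%, against 31.6%), so that 75 changed in either direction, where 67% of all genes did. The median log2 difference was -0.11 over members and 0.0068 over all genes. Between panicle and flag leaf 54 members were higher (47.4%, against 48.9%) and 30 lower (26.3%, against 26.2%), or 84 in either direction, where 75.1% of all genes were called. The medians were 0.30 over members and 0.30 over all genes. Between embryo and endosperm 50 were higher (43.9%, against 44.6%) and 29 lower (25.4%, against 24.4%), or 79 in either direction, where 69% of all genes were called. The medians were 0.19 over members and 0.20 over all genes. The shares in the last 2 pairs were close to those of all genes. The balance of directions there depended on the scaling. With TMM scaling the embryo and endosperm split was 42 higher and 42 lower. Of about 19410 genes called there among all genes, 9402 were higher, and the median of all genes moved by -0.20. In panicle and flag leaf the split was 51 higher and 36 lower with TMM and 39 higher and 36 lower with quantile normalization. Of all genes called, about 11520 of 21030 were higher with TMM and 10140 of 20880 with quantile normalization. The median of all genes moved by -0.22 and -0.33. Single changes in these pairs are therefore relative to a shift of that size. Libraries of the pair did not overlap for 47 members in the plumules (41.2%, against 35.1% of all genes), 86 in the seedlings (75.4%, against 78.4%), 93 in panicle and flag leaf (81.6%, against 86.9%) and 96 in embryo and endosperm (84.2%, against 82.2%).

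**Figure D2:**
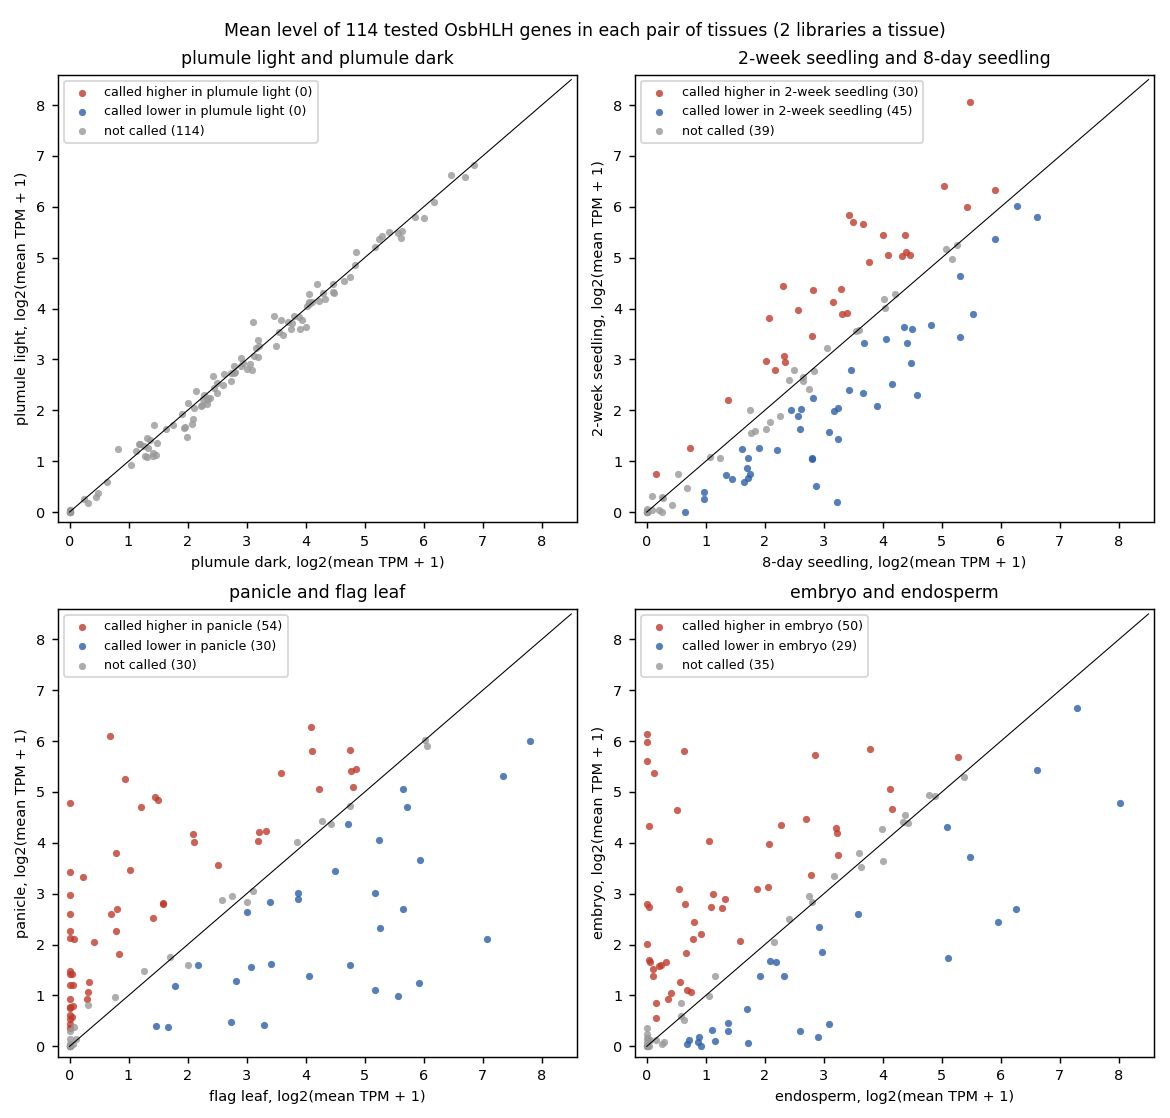
Scatter plots of log2(mean TPM + 1) for the 114 tested OsbHLH genes in each pair of tissues (y axis and x axis, mean of 2 libraries), coloured by the limma call. Points lie along the diagonal for the plumules, where no gene was called, and spread widely for panicle and flag leaf and for embryo and endosperm.

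The gene closest to a call between the plumules was OsbHLH148, a jasmonate-linked factor known from drought tolerance. It had 12.7 and 12.1 TPM in plumule light, against 6.98 and 8.24 TPM in plumule dark (log2 difference 0.64, SE 0.16, limma adjusted p = 0.303). edgeR on the reads worked out from TPM called it, with a log2 difference of 0.72 (adjusted p = 0.0314), and DESeq2 gave it no adjusted p. OsbHLH006 (RERJ1, an early jasmonate-responsive gene) had 13.7 and 13.2 TPM in light, against 10.0 and 10.1 TPM in dark (log2 difference 0.39, SE 0.11, limma adjusted p = 0.342). The libraries of light and dark did not overlap for either gene, as they did not for 35.1% of all genes.

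Stomatal development runs through SPEECHLESS, MUTE and FAMA, bHLH proteins that start, advance and complete the guard cell lineage and pair with ICE proteins. The early genes were found in young shoots. OsbHLH055, the rice MUTE, had 3.57 and 3.04 TPM in plumule light, 3.58 and 3.88 TPM in plumule dark, 0.566 and 0.456 TPM in the 2-week seedling and 2.78 and 1.52 TPM in the 8-day seedling, and it was listed at 0 in panicle, flag leaf and endosperm. It was lower in the 2-week than in the 8-day seedling (log2 difference -1.03, SE 0.15, limma adjusted p = 3.8e-05). OsbHLH053 and OsbHLH054, the rice SPEECHLESS genes, stayed between 0 and 1.53 TPM in every library, and OsbHLH054 was not tested.

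OsbHLH051, the rice FAMA, had a different order of tissues. It was highest in flag leaf, with 0.348 and 0.427 TPM in panicle, against 5.53 and 5.75 TPM in flag leaf (log2 difference -2.26, SE 0.13, limma adjusted p = 9.96e-10). It was also lower in the 2-week seedling (2.19 and 3.19 TPM) than in the 8-day seedling (5.01 and 4.79 TPM). Embryo and endosperm gave no OsbHLH051 reads.

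The ICE genes, known from cold tolerance as well as stomata, were set apart by tissue. OsbHLH002 (OsICE1) was a plumule and young seedling transcript, with 48.2 and 42.3 TPM in plumule light and 50.2 and 47.4 TPM in plumule dark. It was lower in the 2-week seedling (9.81 and 9.81 TPM) than in the 8-day seedling (40.2 and 37.2 TPM, log2 difference -1.88, SE 0.10, limma adjusted p = 1.37e-09), and it had 1.65 and 1.69 TPM in panicle, against 0 and 0.0494 TPM in flag leaf. In embryo OsbHLH002 had 29.2 and 30.5 TPM, against 24.4 and 28.6 TPM in endosperm, which was not called and changed sign with TMM (-0.26, limma adjusted p = 0.0387). OsbHLH001 (OsICE2) was instead the leading endosperm member, with 27.2 and 25.8 TPM in embryo, against 251 and 265 TPM in endosperm (log2 difference -3.23, SE 0.11, limma adjusted p = 1.39e-11). In panicle it had 4.73 and 3.30 TPM, against 37.6 and 36.6 TPM in flag leaf (log2 difference -2.94). Flag leaf thus held much OsbHLH001 and almost no OsbHLH002.

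Among jasmonate-linked members, OsbHLH148 and OsbHLH006 were highest in flag leaf. OsbHLH148 had 2.47 and 4.16 TPM in panicle, against 130 and 136 TPM in flag leaf (log2 difference -4.98, SE 0.16, limma adjusted p = 3.07e-12). It was higher in the 2-week seedling (82.9 and 85.0 TPM) than in the 8-day seedling (32 and 32 TPM, log2 difference 1.36, SE 0.16). OsbHLH006 had 0.978 and 1.33 TPM in panicle, against 36.4 and 34.1 TPM in flag leaf (log2 difference -4.08, SE 0.11, limma adjusted p = 3.43e-13). In the 2-week seedling OsbHLH006 had 9.13 and 8.77 TPM, against 11.7 and 12 TPM in the 8-day seedling, a difference of -0.37 that was called by the limma test but not with a pseudocount of 0.1 (limma adjusted p = 0.0694).

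OsbHLH009 (OsMYC2), the central activator of jasmonate responses, varied far less. It had 61.6 and 56.7 TPM in panicle, against 63.4 and 67.1 TPM in flag leaf, and was called in none of the 4 pairs. With TMM scaling, edgeR and DESeq2 it was lower in panicle (log2 difference with TMM -0.41, adjusted p = 0.0025). It was also lower in embryo than in endosperm with these 3 settings, where the sign turned (log2 difference 0.17 on the TPM scale and -0.26 with TMM), while without endosperm replicate 2 it was called higher in embryo (0.26, limma adjusted p = 0.0457). OsbHLH034, which binds JAZ repressors, was lower in the 2-week seedling (0.811 and 1.35 TPM) than in the 8-day seedling (5.61 and 6.34 TPM, log2 difference -1.75, SE 0.17, limma adjusted p = 7.78e-07). Its lower level in panicle than in flag leaf (log2 difference -0.59) was no longer called without flag leaf replicate 1 (limma adjusted p = 0.0673).

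The JAZ proteins hold these factors inactive until jasmonate is sensed. Of 16 JAZ and TIFY genes tested, 5 were higher and 6 lower in the 2-week than in the 8-day seedling, 5 higher and 9 lower in panicle than in flag leaf, and 1 higher and 7 lower in embryo than in endosperm. Shares of all genes called in these directions were 35.4% and 31.6%, 48.9% and 26.2%, and 44.6% and 24.4%, as given above, and they are the background for the short lists below as well. Genes of diterpenoid phytoalexin synthesis, a defence pathway, were 5 of 6 higher in the 2-week than in the 8-day seedling, with none lower, and 6 of 6 lower in panicle than in flag leaf. OsCPS2, which opens one branch of it, averaged 14.9 TPM in panicle and 105 TPM in flag leaf.

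Iron homeostasis in rice runs through a chain in which OsbHLH058 (OsPRI2) and OsbHLH059 (OsPRI3) activate deficiency genes and OsbHLH061 acts as a repressor. The activators did not move together. OsbHLH058 had 36.9 and 41.0 TPM in panicle, against 165 and 157 TPM in flag leaf (log2 difference -2.02, SE 0.10, limma adjusted p = 4.47e-10), and 11.3 and 13.2 TPM in embryo, against 44.1 and 43.0 TPM in endosperm (log2 difference -1.75, SE 0.10, limma adjusted p = 3.64e-09). It was also lower in the 2-week seedling (54.2 and 55.7 TPM) than in the 8-day seedling (107 and 85.6 TPM). OsbHLH059 stayed between 37.9 and 80.0 TPM in all 16 libraries and was higher in the 2-week seedling (79.0 and 80.0 TPM) than in the 8-day seedling (54.0 and 63.8 TPM, log2 difference 0.43, SE 0.09).

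OsbHLH061 (Os11g0601700) was higher in the 2-week seedling (45.2 and 53.7 TPM) than in the 8-day seedling (11.8 and 11.5 TPM, log2 difference 2.00, SE 0.14, limma adjusted p = 2.5e-08). The other identifier with this symbol, Os11g0601650, did not exceed 0.174 TPM. OsbHLH057, another member of this group, had 31.7 and 31.7 TPM in the 2-week seedling, against 18.0 and 19.9 TPM in the 8-day seedling (log2 difference 0.71, SE 0.08). Its call in panicle against flag leaf was lost with TMM scaling, and its difference between embryo and endosperm changed sign, with 0.06 on the TPM scale and -0.37 with TMM. OsbHLH156, a partner of the iron regulator OsIRO2, did not exceed 0.764 TPM. Of 7 genes for iron uptake and its control, 5 were higher and 1 lower in the 2-week than in the 8-day seedling. OsNAAT1, an enzyme of phytosiderophore synthesis, averaged 86.6 TPM in the 2-week seedling and 0.266 TPM in the 8-day seedling.

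Members tied to salt stress and root growth were highest in flag leaf or a seedling. OsbHLH024, whose loss is reported to raise salt tolerance, had 0.891 and 1.07 TPM in panicle, against 47.0 and 45.4 TPM in flag leaf (log2 difference -4.58, SE 0.13, limma adjusted p = 9.82e-13). OsbHLH068, also linked to salt responses, had 6.59 and 7.51 TPM in panicle, against 35.6 and 34.6 TPM in flag leaf (log2 difference -2.17, SE 0.11). OsbHLH035, known from germination and recovery under salt, was higher in the 2-week seedling (13.1 and 13.0 TPM) than in the 8-day seedling (2.63 and 3.80 TPM, log2 difference 1.75, SE 0.14). OsbHLH120, a gene of root thickness, was lower in the 2-week seedling (14.5 and 13.1 TPM) than in the 8-day seedling (44.9 and 45.8 TPM, log2 difference -1.65, SE 0.12).

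OsbHLH079 and OsbHLH107, which affect leaf angle and grain size, were both higher in panicle than in flag leaf, but neither peaked in panicle. OsbHLH079 averaged 35.8 TPM in plumule light, 35.0 TPM in plumule dark, 24.1 TPM in the 2-week seedling and 38.8 TPM in the 8-day seedling. OsbHLH107 was highest in the 2-week seedling, with a mean of 19.6 TPM. OsbHLH079 had 7.87 and 10.1 TPM in panicle, against 0.0759 and 0.273 TPM in flag leaf (log2 difference 3.09, SE 0.12, limma adjusted p = 2.82e-11). OsbHLH107 had 9.23 and 10.9 TPM in panicle, against 0.891 and 1.17 TPM in flag leaf (log2 difference 2.45, SE 0.12). The seedlings separated them, since OsbHLH079 was lower in the 2-week than in the 8-day seedling (log2 difference -0.67, SE 0.12) and OsbHLH107 was higher (log2 difference 1.54, SE 0.12).

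OsbHLH142 (TIP2), which controls the tapetum, the layer that feeds developing pollen, was the one tapetum gene found under its OsbHLH symbol. It had 4.58 and 5.48 TPM in panicle and no reads in flag leaf. Set against a floor of 3 reads per flag leaf library, it was at least 25.2-fold higher in panicle. In the other 6 tissues it did not exceed 0.340 TPM. Of 7 tested genes of the tapetum programme, 6 were higher in panicle than in flag leaf and none was lower. Not all of the 7 peaked in panicle. OsAP25 averaged 9.41 TPM there, against 274 TPM in plumule dark and 298 TPM in the 8-day seedling. OsCP1 (Os04g0670500) averaged 0.584 TPM in panicle and 2.77 TPM in the 8-day seedling, and YY1 1.25 TPM in panicle and 1.71 TPM in flag leaf. OsRAFTIN1, a tapetum protein of the pollen wall, averaged 379 TPM in panicle and 0.0334 TPM in flag leaf.

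OsbHLH144, which joins NF-Y subunits at the promoter of the amylose synthesis gene Wx, was a seed gene. It had 3.98 and 4.86 TPM in embryo, against 61.3 and 60.7 TPM in endosperm (log2 difference -3.52, SE 0.11, limma adjusted p = 4.4e-12), and at most 0.0784 TPM in any library of the other 6 tissues. OsbHLH145 followed the same order, with 2.72 and 1.99 TPM in embryo, against 33.3 and 33.5 TPM in endosperm (log2 difference -3.37, SE 0.12). OsbHLH147 had 5.48 and 5.45 TPM in embryo, against 68.4 and 83.1 TPM in endosperm (log2 difference -3.56, SE 0.11), and no reads elsewhere. The embryo level of these genes was 7.25% (OsbHLH144), 7.05% (OsbHLH145) and 7.21% (OsbHLH147) of the endosperm level, near the median of 8.45% over the storage protein genes and regulators given above. The part of endosperm RNA in the embryo libraries in these values was not tested. RPBF and RISBZ1, regulators of storage protein genes, averaged 33.9 TPM and 6.26 TPM in embryo, against 378 TPM and 59.2 TPM in endosperm.

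**Figure D3:**
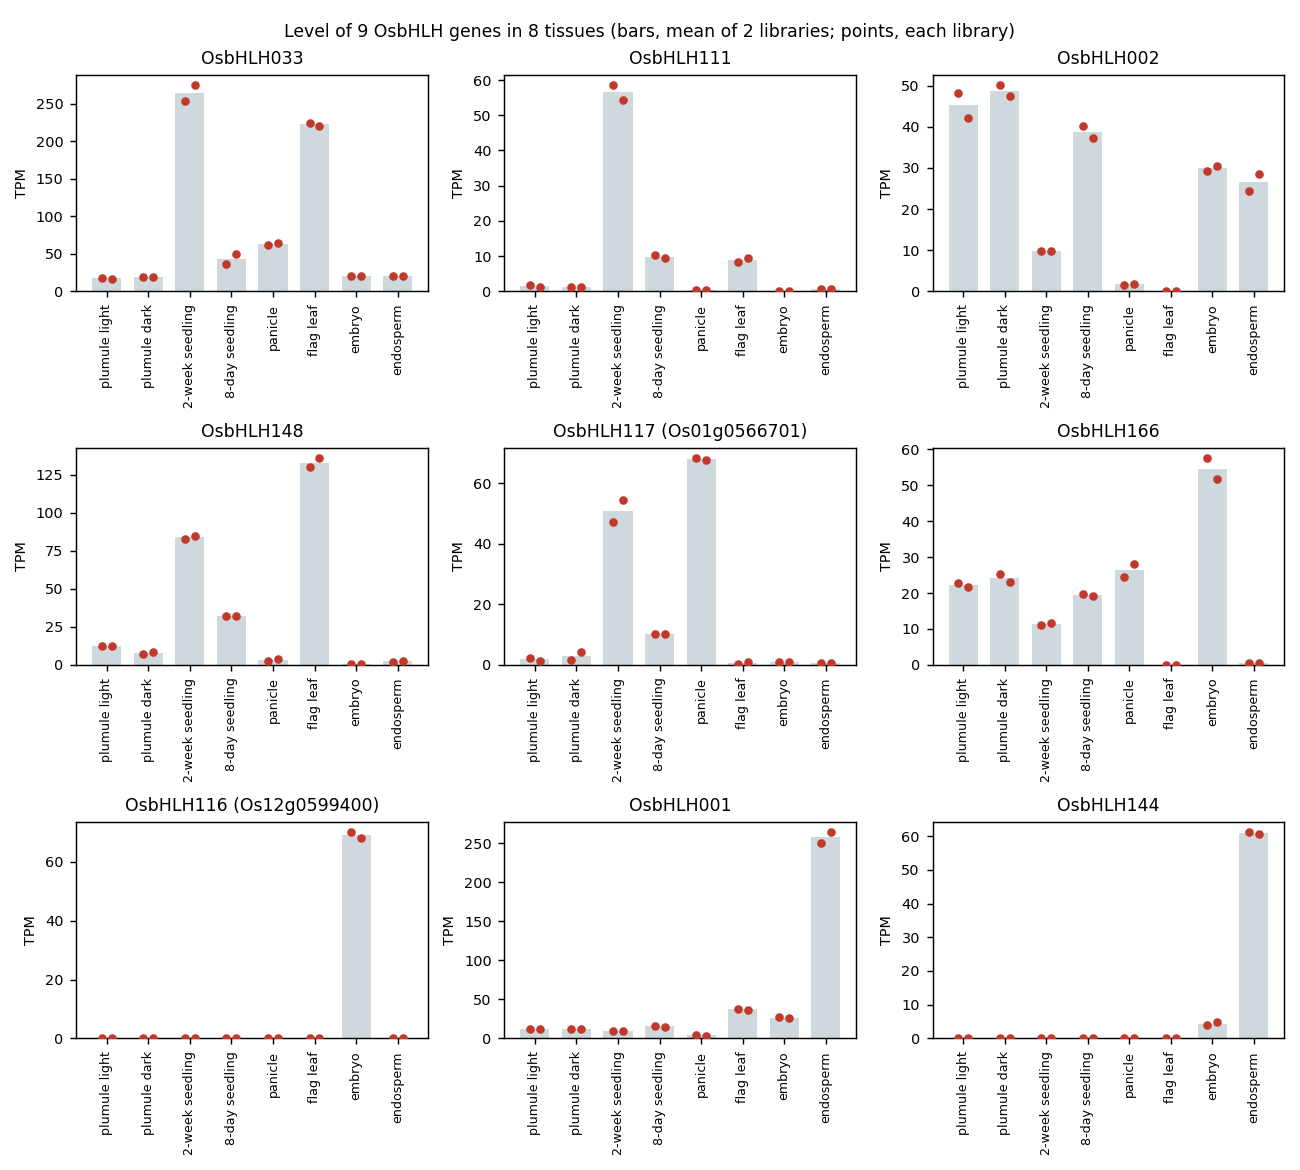
Level in TPM of 9 OsbHLH genes in 8 tissues (bars, mean of 2 libraries; points, each library; each panel has its own axis from 0). OsbHLH033 and OsbHLH148 peak in the older seedling and flag leaf, OsbHLH117 is low in flag leaf, OsbHLH166 has no reads there, and OsbHLH116, OsbHLH001 and OsbHLH144 peak in seed tissues.

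Members with no role given here also stood out in each pair. In the seedlings OsbHLH033 had 254 and 276 TPM at 2 weeks, against 36.3 and 50.5 TPM at 8 days (log2 difference 2.60, SE 0.11, limma adjusted p = 2.66e-10). OsbHLH111 had 58.6 and 54.3 TPM at 2 weeks, against 10.2 and 9.34 TPM at 8 days (log2 difference 2.41, SE 0.12), and its highest level elsewhere was 9.36 TPM in flag leaf. OsbHLH044 had 21.4 and 19.97 TPM at 2 weeks, against 3.78 and 4.18 TPM at 8 days (log2 difference 2.13, SE 0.15). In the opposite direction OsbHLH020 had 0.177 and 0.127 TPM at 2 weeks, against 8.73 and 7.85 TPM at 8 days (log2 difference -3.01, SE 0.13, limma adjusted p = 2.03e-10). OsbHLH020 was at 15.7 to 17.2 TPM in the 4 plumule libraries, so the libraries at 2 weeks lay below all those of younger shoots.

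A similar order was found for OsbHLH021, with 10.9 to 12.9 TPM in the plumules, 0.183 and 0.687 TPM at 2 weeks and 6.39 and 6.24 TPM at 8 days (log2 difference -2.37, SE 0.17). OsbHLH158 had 36.9 to 42.4 TPM in the plumules, 3.06 and 3.37 TPM at 2 weeks and 14.1 and 13.8 TPM at 8 days (log2 difference -1.82, SE 0.11). OsbHLH118 and OsbHLH052 were also lower at 2 weeks, by log2 differences of -2.28 (SE 0.11) and -1.82 (SE 0.22). All libraries at 2 weeks lay below those at 8 days for these genes.

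Large steps were also found between panicle and flag leaf. OsbHLH166 had 24.6 and 28.2 TPM in panicle and no reads in flag leaf, at least 93.3-fold higher against a floor of 3 reads per library. OsbHLH157 had 9.82 and 9.71 TPM in panicle and no reads in flag leaf, at least 29.6-fold higher on the same basis. OsbHLH085 had 25.5 and 24.8 TPM in panicle, against 1.61 and 1.03 TPM in flag leaf (log2 difference 3.51, SE 0.13). OsbHLH091 had 28.8 and 28.8 TPM in panicle, against 1.75 and 1.68 TPM in flag leaf (log2 difference 3.46, SE 0.08). Both identifiers of OsbHLH117 were higher in panicle. Os01g0566701 had 68.2 and 67.7 TPM in panicle, against 0.333 and 0.9 TPM in flag leaf (log2 difference 5.44, SE 0.25), and Os01g0566800 had 39.0 and 35.0 TPM, against 1.08 and 0.761 TPM (log2 difference 4.31, SE 0.16). Both were higher in the 2-week than in the 8-day seedling as well.

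Other members were far lower in panicle than in flag leaf. OsbHLH113 had 1.80 and 0.948 TPM in panicle, against 59.1 and 59.9 TPM in flag leaf (log2 difference -4.69, SE 0.19, limma adjusted p = 2.77e-11). OsbHLH084 had 1.92 and 2.15 TPM in panicle, against 26.1 and 25.4 TPM in flag leaf (log2 difference -3.14, SE 0.12). OsbHLH037 had 5.15 and 5.82 TPM in panicle, against 48.3 and 49.8 TPM in flag leaf (log2 difference -2.95, SE 0.11). OsbHLH092 and OsbHLH090, the leading plumule genes, went the other way and were higher in panicle by log2 differences of 1.80 (SE 0.07) and 1.06 (SE 0.06).

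Embryo held several members that endosperm lacked. OsbHLH116 was read in embryo alone, with 70.1 and 68.2 TPM at Os12g0599400 and 62.2 and 62.6 TPM at Os12g0599550, and both were at 0 in the 14 libraries of other tissues. Against a floor of 3 reads per endosperm library they were at least 131-fold and 172-fold higher in embryo. OsbHLH047 had 46.5 and 48.7 TPM in embryo and no reads in endosperm, at least 282-fold higher on this basis. OsbHLH046 had 38.6 and 41.9 TPM in embryo, against 0 and 0.182 TPM in endosperm (log2 difference 5.24, SE 0.14, limma adjusted p = 1.61e-12). OsbHLH166 had 57.5 and 51.7 TPM in embryo, against 0.557 and 0.550 TPM in endosperm (log2 difference 5.16, SE 0.09). OsbHLH124 had 20.3 and 18.2 TPM in embryo, against 0.0571 and 0 TPM in endosperm (log2 difference 4.30, SE 0.13). In endosperm, OsbHLH046, OsbHLH124 and OsbHLH166 were at 0.226%, 0.148% and 1.01% of their embryo level, and OsbHLH047 was at 0%. These values lay below the median of 8.67% over the embryo list given above, whose range of 0.0708% to 398% is too wide to place them. The part of embryo RNA in the endosperm libraries in these values was not tested.

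Besides the genes already named, OsbHLH024 and OsbHLH078 were lower in embryo than in endosperm. OsbHLH024 had 0.213 and 0.0455 TPM in embryo, against 6.64 and 6.23 TPM in endosperm, and OsbHLH078 had 0 and 0.727 TPM, against 7.02 and 8.06 TPM. OsbHLH065, the leading embryo member, was also lower there (98.0 and 102 TPM) than in endosperm (164 and 146 TPM, log2 difference -0.63, SE 0.11, limma adjusted p = 0.000214). It did not exceed 20.7 TPM in the other 6 tissues.

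Some members may share reads with another gene. Both identifiers of OsbHLH116 were read in embryo alone. Both identifiers of OsbHLH117 were highest in panicle, then in the 2-week and the 8-day seedling, though the order of their lowest tissues differed. OsbHLH160 (Os11g0111800) and OsbHLH161 (Os12g0111400) were both plumule genes, with 40.4 to 54.0 TPM and 11.1 to 15.6 TPM in the 4 plumule libraries. How reads that match more than 1 gene were assigned, and whether strand was used, could not be learned from the methods or labels, so the levels within these pairs are uncertain.

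m6A was examined at the positions assigned to members. A position was counted in a tissue when it carried the authors' detection flag and had a read depth of at least 20. The table listed 568 positions in 85 members, and 527 of them in 82 members were counted in at least 1 tissue. Of these, 227 lay in the coding sequence (CDS), 200 in the 3' UTR and 21 in the 5' UTR, and 55 were annotated to incomplete transcripts. The pooled values have no replicate error, so differences between tissues are given without a test. No fraction of untreated libraries was at hand to set beside them.

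The number of counted sites in members was 143 in plumule light, 133 in plumule dark, 126 in the 2-week seedling, 179 in the 8-day seedling, 169 in panicle, 169 in flag leaf, 145 in embryo and 127 in endosperm. Whether a gene had a counted site went with its level. Among members whose highest mean was 1 to 5 TPM, 1 of 19 had a counted site in any tissue (5.26%, against 15.4% of other genes). The share was 23 of 35 from 5 to 20 TPM (65.7%, against 74.0%), 34 of 36 from 20 to 50 TPM (94.4%, against 92.1%) and 23 of 25 from 50 TPM on (92.0%, against 94.7%). The 4 members of at least 20 TPM without a counted site were OsbHLH147, OsbHLH116 (Os12g0599550), OsbHLH160 and OsbHLH006, of which OsbHLH160 was chosen after its values were seen.

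The mean fraction of counted sites was lower in members in 8 of 8 tissues, between 0.36 and 0.435 in members and 0.411 to 0.462 in other genes. The median depth was 81.5 to 118 in members and 81.0 to 117 in other genes, and members were deeper in 4 of 8 tissues. Within the 3' UTR the mean was again lower in members in 8 of 8 tissues (0.410 to 0.506, against 0.497 to 0.545), and within the CDS in 5 of 8. When each gene counted once, members were lower in 7 of 8 tissues (0.353 to 0.455, against 0.417 to 0.473), plumule light being the exception. At sites counted in all 8 tissues members were not lower, since the median over sites of the mean fraction was 0.502 in members and 0.494 in other genes. At a depth of at least 50 the CDS mean over tissues was 0.291 in members and 0.288 in other genes. The tissues share genes and sites, so these are not independent repeats.

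**Figure D4:**
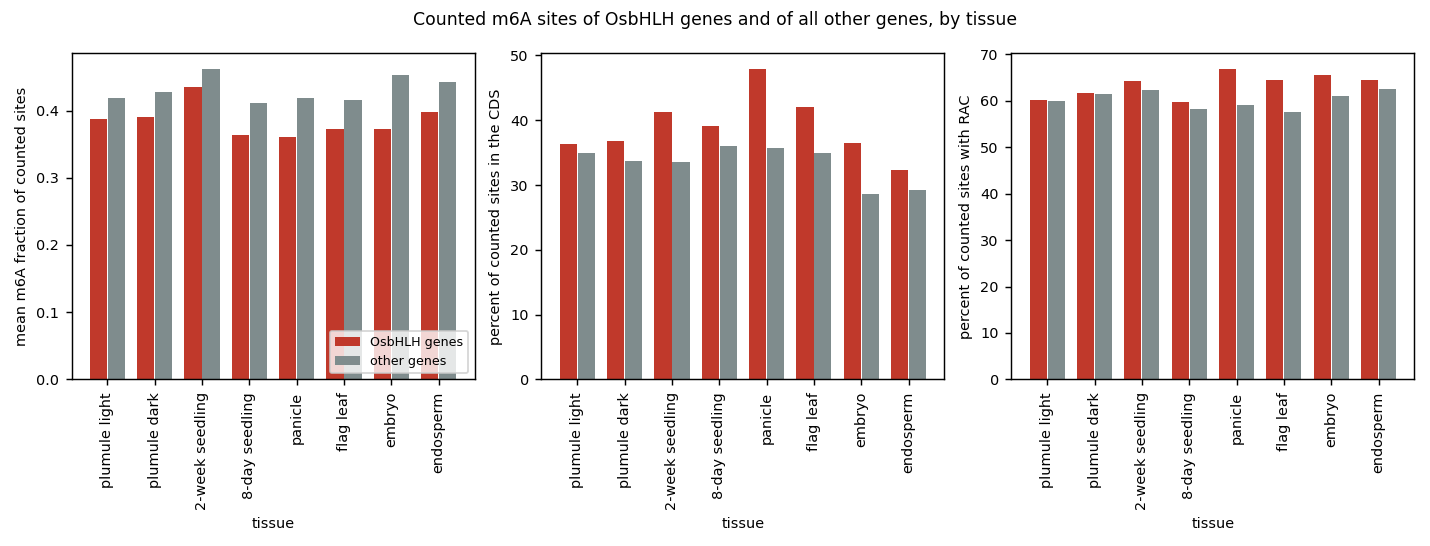
Counted m6A sites of OsbHLH genes (red) and of all other genes (grey) in 8 tissues. Left, mean fraction (0 to 1); middle, percent of sites in the CDS; right, percent of sites with the RAC motif. In each tissue the red bar is lower on the left and higher in the middle and on the right, though on the right the plumule bars are nearly equal.

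The position and the sequence around the sites differed as well. The CDS held 32.3% to 47.9% of counted sites in members and 28.6% to 36.1% in other genes, and its share was higher in members in 8 of 8 tissues. For the 3' UTR (40.8% to 58.3%, against 44.6% to 53.8%) the share was lower in members in 5 tissues and higher in 3. Motifs of the form RAC, where R is a purine, took 59.8% to 66.9% of sites in members and 57.7% to 62.5% in other genes. The RAC share was also higher in 8 of 8 tissues, while GAT motifs were lower in 8 of 8. In the plumules the RAC shares were nearly equal (61.7%, against 61.5%, in dark and 60.1%, against 59.9%, in light). With a fraction of at least 0.1 in place of the flag, members had 50.4% in plumule light, below the lowest share of other genes in any tissue (53.3%). The 6 members with the most counted sites held 23.0% of them, so a few transcripts weigh on these shares. The 4 commonest 5-base sequences at counted sites are shown, and with them aaAct, chosen after its values were seen for its higher fraction. The capital marks the methylated base, letters run 5′ to 3′ on the transcript strand, and the sequences are those of the deposited site table (IRGSP-1.0).
Motif at 68 sites, mean fraction 0.368: agAca
Motif at 35 sites, mean fraction 0.261: tgAca
Motif at 30 sites, mean fraction 0.180: agAtg
Motif at 29 sites, mean fraction 0.259: agAct
Motif at 10 sites, mean fraction 0.598: aaAct
The first of these made up 12.9% of counted sites in members and 8.46% in other genes, and agAtg made up 5.69% and 7.81%. Of these 5, aaAct had the highest mean fraction, though motifs with fewer sites went higher, such as gaAcc with 0.816 over 7 sites. In its spike-in probes the paper found a far higher mutation ratio for GAC than for AAC. Whether the calibration makes fractions comparable between motifs, here and at the single sites below, was not tested.

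OsbHLH033 had the most counted sites, 25 over all tissues, with 6 to 15 in any 1 tissue. It had 15 in the 2-week seedling and 11 in the 8-day seedling, and 13 in panicle and 15 in flag leaf, so the tissues with the most transcript had the most counted sites. OsbHLH150 had 23 sites, OsbHLH138 had 21 (all annotated to an incomplete transcript), OsbHLH008 had 20, and OsbHLH059 and OsbHLH090 had 16 each, as did OsbHLH092 and OsbHLH149. Of the 527 sites, 292 were counted in 1 tissue only (55.4%, against 50.2% in other genes), and 18 were counted in all 8 (3.42%, against 6.83%). The 18 lay in 10 members, 14 of them in the 3' UTR and 4 in the CDS. The 3' UTR share was 77.8%, against 70.2% for such sites in other genes.

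**Figure D5:**
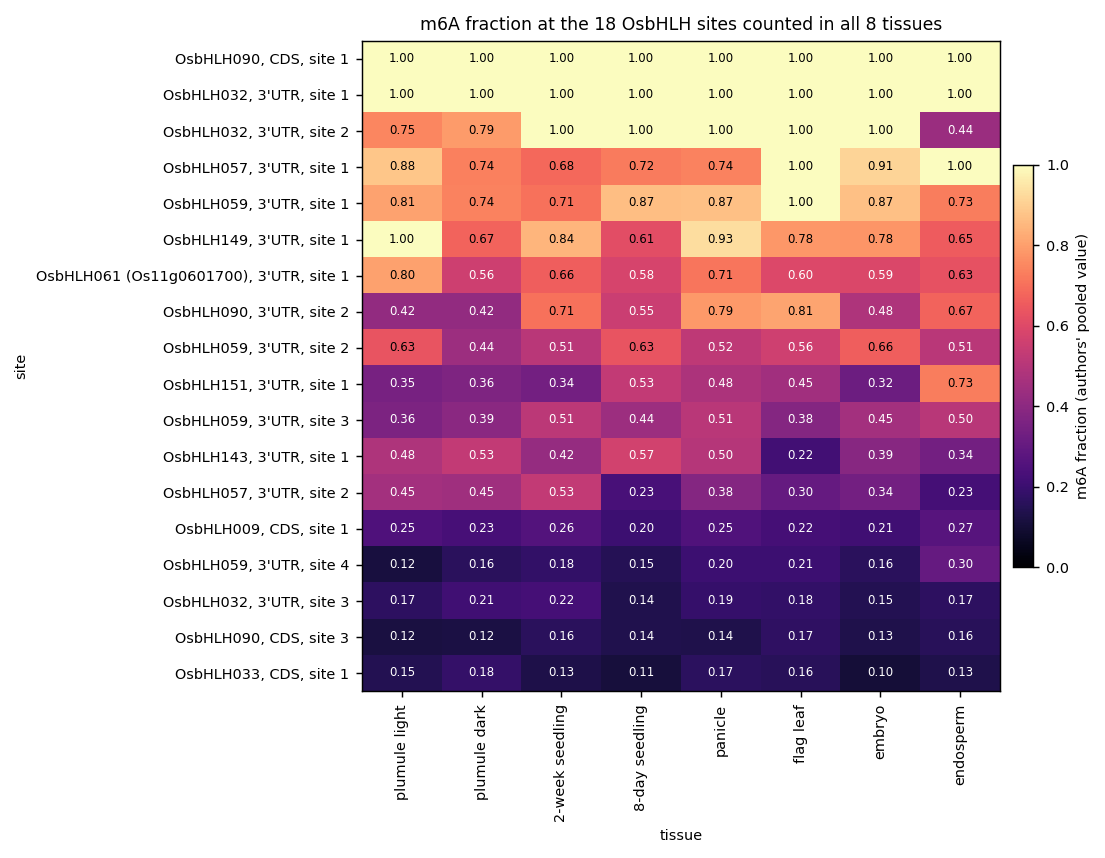
m6A fraction (authors' pooled value, 0 to 1, printed in each cell) at the 18 sites in OsbHLH genes counted in all 8 tissues, ordered by mean fraction. Sites at 1 in all tissues stand at the top, and sites between 0.102 and 0.184 at the bottom.

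Iron homeostasis members held 7 of these 18 sites, a count made after the values were seen. OsbHLH059 alone had 4, all in its 3' UTR on the minus strand of chromosome 2. They are shown because nearby sites of 1 transcript, with unlike motifs, differed in level.
OsbHLH059, position 876211: aaAct
OsbHLH059, position 876143: ggAtc
OsbHLH059, position 876195: ggAgt
OsbHLH059, position 876064: tgAct
The site at 876211 had fractions of 0.706 to 0.999 over the 8 tissues at depths of 182 to 380, and the nearby 876195 had 0.116 to 0.302 at depths of 196 to 410. The site at 876143 had 0.361 to 0.514, and the site at 876064 had 0.439 to 0.663. The order of 876211 above 876195 held in all 8 tissues. Between the plumules 876064 was at 0.633 in light and 0.439 in dark, with depths of 134 and 125, while in light 876195 was at 0.116, against 0.162 in dark.

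OsbHLH057 had 2 sites in its 3' UTR on the minus strand of chromosome 7 that are shown for the same reason.
OsbHLH057, position 21466945: gaAct
OsbHLH057, position 21467013: aaAct
The first had 0.684 to 1 over the tissues at depths of 59 to 131, and the second 0.225 to 0.529 at depths of 156 to 315. In the seedlings the second site had 0.529 at 2 weeks and 0.233 at 8 days. OsbHLH061 (Os11g0601700) had 1 site on chromosome 11 at position 23133058, in its 3' UTR, with 0.802 in plumule light and 0.557 in plumule dark, at depths of only 26 and 32.

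The highest fractions at sites counted in all tissues were in OsbHLH090 and OsbHLH032, and the lowest in OsbHLH033, OsbHLH090 and OsbHLH032. Both ends are shown.
OsbHLH090, chromosome 1, position 39896681, minus strand, CDS: acAcc
OsbHLH032, chromosome 9, position 18214805, plus strand, 3' UTR: agAca
OsbHLH032, chromosome 9, position 18214837, plus strand, 3' UTR: taAct
OsbHLH032, chromosome 9, position 18214560, plus strand, 3' UTR: agAcc
OsbHLH090, chromosome 1, position 39895229, minus strand, CDS: agAtg
OsbHLH033, chromosome 1, position 37777827, plus strand, CDS: agAct
The first pair had a fraction of exactly 1 in all 8 tissues, at depths of 115 to 418 and 35 to 211. The acAcc site is neither RAC nor GAT, and no fraction of untreated libraries was at hand for it. The site at 18214837 of OsbHLH032 was at 1 in the seedlings, panicle, flag leaf and embryo, at 0.746 in plumule light, 0.789 in plumule dark and 0.436 in endosperm, at depths of 24 to 120. The lowest were 0.138 to 0.224 (OsbHLH032), 0.118 to 0.173 (OsbHLH090) and 0.102 to 0.184 (OsbHLH033). The OsbHLH033 site varied by 0.0817 while the transcript level varied between 17.1 and 276 TPM.

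Pairs of tissues were compared at sites counted in any of the other 6 tissues that reached the depth minimum of 20 in each. Between plumule light and plumule dark the mean fraction over 340 member sites was 0.195 and 0.192, and 14 sites (4.12%) were higher in light by at least 0.2, while 16 (4.71%) were lower. In other genes these shares were 6.74% and 6.65%. Over 280 sites the mean was 0.221 in the 2-week and 0.217 in the 8-day seedling. Over 252 sites it was 0.219 in panicle and 0.236 in flag leaf, with 5.16% of sites higher by at least 0.2 and 8.33% lower, against 7.82% and 8.25% in other genes. Over 251 sites it was 0.198 in embryo and 0.211 in endosperm. Without replicates for the fractions, none of these differences can be set against an error.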

How the data were processed

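Sample titles gave each library its tissue and replicate. The authors deposited TPM per gene for 16 libraries called input (assigned to the untreated libraries by name), and for each site and tissue 1 pooled m6A fraction (0 to 1, calibrated by the authors on spike-in probes), 1 read depth as a whole-number count, and a detection flag. The study counts sites found in both replicates and names a minimum of 20 reads. Whether the deposited flag applies that rule, and how the pooled fraction and depth were formed, is not stated. A misspelled flag header was read as the 2-week seedling, the 1 tissue left without a flag. Sites were called with the public m6A-SAC-seq code on IRGSP-1.0, with aligner and counter "not given in the sources used here". No per-sample column was left unmapped (0).

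Genes at 1 TPM or more in at least 2 libraries entered limma (3.58.1, R 4.3.3), fitted to log2(TPM + 1) with trend and robust variances, tissue as the factor and all 16 libraries, adjusted over all 28562 genes, two-sided. TPM times gene length gave whole reads for 100% of values up to 100 reads (tolerance 0.1), so edgeR 4.0.16 and DESeq2 1.42.0 were run on those reads as alternatives. p-values measure the spread between 2 replicates. Python 3.11.15, numpy 2.4.6, pandas 2.3.3 and matplotlib 3.10.9 were used. Calling was tested on simulated data. Alternatives were another pseudocount, filter, scaling, variance model or set of libraries, a replicate block, each library left out, and for sites another depth minimum or a fraction in place of the flag.

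The members, lists and tests were chosen with earlier results of these data known. Named genes were, per pair, up to 6 called higher and 6 called lower with the largest differences, non-overlapping libraries and at least 5 TPM, then the top 2 of each tissue, members with a listed role, the 6 members with most m6A sites, the 3 highest and 3 lowest sites counted in all 8 tissues, members under the filter in order of symbol, and OsbHLH148. OsbHLH151 stood in a role list under a number that did not match its identifier and is given no role. Protein features of the members and exon structure were not analysed here.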

Additional observations from a re-analysis of the deposited data

How the results depend on the processing

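Of the counts of members called, those that leave out 1 of the 16 libraries stayed within 1.5 times the count given (144 of 144 fits), for example 46 to 51 higher and 26 to 30 lower in embryo against endosperm. Between the plumules edgeR called 1 member higher, OsbHLH148, and edgeR with the replicate block, added after seeing the data, also called 1, against 0 with limma. Over all 28562 genes edgeR called 41 (31 higher), and with the block 101 (67 higher), against 3 with limma. Whether the replicate numbers pair the tissues is not stated. Deviations of same-numbered libraries correlated at -0.201 to 0.236 (median 0.097 over 28 pairs of tissues), which cannot decide it without a reference value. With the replicate block in limma, 55 members were higher and 31 lower in panicle and 49 higher and 29 lower in embryo. About 21760 of all genes were called in the first pair (14160 higher) and 20030 in the second (12950 higher).

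With a fraction of at least 0.1 in place of the flag, the mean number of counted member sites per tissue was 238 instead of 149. The mean fraction of these sites was 0.385 as counted, 0.412 with no depth minimum, 0.349 with a depth of at least 50 and 0.335 with a fraction of at least 0.1. The members' mean over tissues remained below that of other genes under all of these settings, which had 0.431, 0.464, 0.391 and 0.370 in the same order.

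Among named genes, 16 fits of 1324 turned a difference round. In panicle against flag leaf OsbHLH059 was at -0.27 with TMM and -0.31 with DESeq2, and OsbHLH057 at -0.010 with DESeq2. In embryo against endosperm OsbHLH057 was at -0.37 with TMM, -0.24 with quantile normalization, -0.49 with edgeR with and without the block and -0.45 with DESeq2. OsbHLH002 was at -0.26 (TMM), -0.37 (edgeR, with and without the block) and -0.34 (DESeq2), and OsbHLH009 at -0.26, -0.37 and -0.34 in the same order. Without the filter, 17 of the 19 low members entered the limma fit. Of these, 1 was called between the seedlings, 4 between panicle and flag leaf and 3 between embryo and endosperm. Over all genes at any level that fit called about 19780, 23160 and 20400 in the same order. The share called among other low genes was not worked out, so the counts of low members have no background. The pooled m6A values carry no replicate error.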
